A study of Homo sapiens with 2 samples.

Results

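The sparse megabases of the human autosomes outside chromosome 15 were 47 of the 2638 bins of 1 Mb examined in a map of nucleosome positions from ARPE-19 cells, a long-established line grown from human retinal pigment epithelium. They were chosen by the number of called positions: a bin was a member when it held 20 to 400 positions and at least 900 kb of determined (non-N) sequence. The map came from cells in interphase under normal culture, prepared as 2 batches, with no treatment and no second condition. Chromatin was digested with micrococcal nuclease (MNase) for 5 min, DNA of about 150 bp was cut from a gel and sequenced. The authors deposited 1 list of single-base positions that does not separate the batches, so the values below have no replicates, and the read depth is unknown. Since the counts chose the bins, a low count in a bin is a description and not a finding.

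The rule took 1.78% of the examined bins, and these held 12609 positions, 0.519% of the 2427827 in all examined bins. They lay on 17 of the 21 autosomes examined, with 8 on chromosome 1, 6 on chromosome 6, 5 on chromosome 3 and 4 each on chromosomes 9 and 14, and 0 on chromosomes 5, 7, 13 and 19. Of the other bins, 2547 held over 400 positions and 44 held under 20, of which 42 held 0. The lowest members held 57 positions on chromosome 16 (36 to 37 Mb), 62 on chromosome 9 (67 to 68 Mb) and 85 on chromosome 8 (45 to 46 Mb), and the nearest bins below the limit held 17 each. At the upper limit the highest members held 394, 396, 396 and 400 positions and the next bins outside it 403, 406 and 407, so the upper limit fell within a continuous range of counts. The lower limit fell in a wide step.

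As background, a nucleosome wraps DNA around a histone octamer, and MNase cuts the linker between nucleosomes more readily, and AT-rich DNA more readily than GC-rich DNA. Human centromeres are built on alpha satellite, a tandem repeat whose units follow each other head to tail over megabases, and the reference assembly models these arrays. Segmental duplications are long copied blocks, often beside centromeres, that carry young gene families. Short reads from such sequence can match several places, and how the authors treated these reads is not given in the sources used here. AT-rich stretches poor in genes often hold single very long genes of the nervous system.

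The sparse bins fell into separate kinds by a property the rule did not use, the share of their 50-base words found at least 2 times in the genome on either strand. In 26 bins, called repeat-rich, at least 50% of words were repeated (59.8 to 97.7%, median 77.9%). In 15 bins, called repeat-poor, under 10% were repeated, and 6 bins lay between. These cut points were chosen after the values were seen. The repeat-rich bins split again by their sequence: 13 held at least 10 kb of windows that matched themselves at a shift of 171 bp, within 1 bp, the length of an alpha satellite unit, and are called tandem-unit bins. The other 13 are called duplicated bins, since a median of 55.5% of their words occurred 2 to 4 times in the genome, against 12.8% in the tandem-unit bins. The ranges overlapped, at 38.7 to 70.8% and 4.86 to 65.9%. Among the tandem-unit bins, those at 15 Mb on chromosome 22 (65.9%) and 121 Mb on chromosome 1 (41.6%) were thus also rich in such words.

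**Figure D1:**
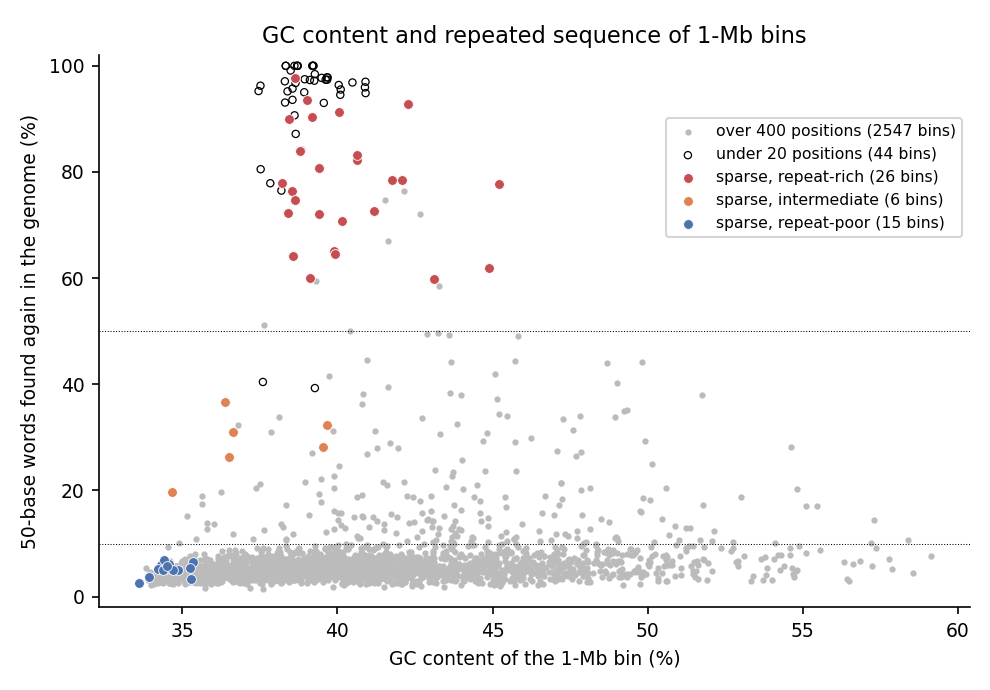
Each point is a 1-Mb bin, with GC content in percent on the x axis and the percentage of its 50-base words found again in the genome on the y axis; dotted lines mark 10% and 50%. The 15 repeat-poor sparse bins sit at the lowest GC contents, 33.6 to 35.4%, and the 26 repeat-rich ones lie above 50% repeated words, as do 42 of the 44 bins with under 20 positions.

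The sequence under the tandem-unit bins is shown by 2 consecutive units from chromosome 21 (chr21:12984387-12984557 and chr21:12984558-12984728, hg38, plus strand), where neighbouring positions lay exactly 1 unit apart. They were taken as the most similar of 10 such unit pairs in 3 tandem-unit bins. Capitals mark the 148 of 171 bases that both units share (86.5%).
unit at the first position: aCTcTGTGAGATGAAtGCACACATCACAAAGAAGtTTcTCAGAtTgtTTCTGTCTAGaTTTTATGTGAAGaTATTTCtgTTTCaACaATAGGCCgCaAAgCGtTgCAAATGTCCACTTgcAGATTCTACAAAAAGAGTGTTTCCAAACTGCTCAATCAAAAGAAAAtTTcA
unit at the next position: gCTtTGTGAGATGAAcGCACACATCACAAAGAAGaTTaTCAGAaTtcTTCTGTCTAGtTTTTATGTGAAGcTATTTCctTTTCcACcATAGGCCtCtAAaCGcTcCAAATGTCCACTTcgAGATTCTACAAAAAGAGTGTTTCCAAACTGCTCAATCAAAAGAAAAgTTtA
The GC content of the units was 35.7% and 36.8%. Identity between consecutive units ranged from 33.9 to 86.5% over the 10 pairs, with a median of 78.7%.

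Of the 5 longest runs of sparse bins, 3 are shown by the 150 bp around the position nearest the middle of each, with G and C in capitals, and a further window comes from the sparse bin with the lowest GC content, on chromosome 1 at 190 to 191 Mb. All are on the plus strand of hg38.
chr9:41966467-41966616: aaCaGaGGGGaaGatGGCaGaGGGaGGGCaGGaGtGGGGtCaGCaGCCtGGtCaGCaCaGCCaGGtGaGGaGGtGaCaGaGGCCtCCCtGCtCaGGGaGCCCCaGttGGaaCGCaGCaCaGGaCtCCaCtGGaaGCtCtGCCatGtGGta
chr1:121008452-121008601: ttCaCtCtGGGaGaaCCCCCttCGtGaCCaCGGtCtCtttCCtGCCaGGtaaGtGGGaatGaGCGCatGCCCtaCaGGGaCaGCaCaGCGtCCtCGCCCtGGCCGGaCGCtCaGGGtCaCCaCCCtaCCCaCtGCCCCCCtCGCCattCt
chr22:15918864-15919013: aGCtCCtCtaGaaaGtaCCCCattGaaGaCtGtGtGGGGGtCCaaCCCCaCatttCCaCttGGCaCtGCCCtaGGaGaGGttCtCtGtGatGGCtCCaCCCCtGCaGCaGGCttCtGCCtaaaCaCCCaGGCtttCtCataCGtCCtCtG
chr1:190499834-190499983: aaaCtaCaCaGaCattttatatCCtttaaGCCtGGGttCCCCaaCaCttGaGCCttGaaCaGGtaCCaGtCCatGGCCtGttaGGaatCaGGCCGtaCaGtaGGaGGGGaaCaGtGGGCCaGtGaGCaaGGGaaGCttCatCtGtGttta
The window on chromosome 9 lay in an intron of CNTNAP3B (GENCODE gives the gene at 41890314 to 42129510), with 62.7% GC and its next position 173775 bp downstream. The window at 121 Mb on chromosome 1 overlapped an exon of the lncRNA LINC00623 and a U1 snRNA copy, inside the lncRNA gene PDE4DIPP4, with 63.3% GC. The window on chromosome 22 lay outside annotated genes and had 55.3% GC. GC content midway to the next position was 33.3, 51.3 and 28.7% for these 3 windows in order, below that of each window. The next positions lay 173775, 23179 and 450498 bp downstream. These midway points were therefore too far away to describe the sequence beside the positions. In the bin with the lowest GC content, 33.6%, the window had 48.7% GC, and 0% of words in its kilobase were repeated. There the next position lay 228 bp downstream, and the midway window, which overlapped that of the position, had 46.7% GC.

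The sparse bins formed 38 runs, of which 30 were single bins, 7 were pairs and 1 held 3 bins. The run of 3 lay on chromosome 1 at 144 to 147 Mb, beside a megabase with too little determined sequence, and held 924 positions. Next came pairs on chromosome 9 (41 to 43 Mb, 290 positions), chromosome 1 (120 to 122 Mb, 382), chromosome 21 (12 to 14 Mb, 485) and chromosome 22 (15 to 17 Mb, 477), all with 56.7 to 78.4% repeated words. Pairs on chromosome 6 (94 to 96 Mb, 664 positions) and chromosome 14 (42 to 44 Mb, 740) had 5.09 and 5.42% repeated words. In all, 17 of the 47 bins (36.2%) lay in runs of 2 or more. All 13 tandem-unit bins and 4 of the 13 duplicated bins adjoined a bin with under 20 positions or with too little determined sequence, as did 3 of the 6 intermediate and 0 of the 15 repeat-poor bins. The remaining pair, on chromosome 3 at 89 to 91 Mb (679 positions), joined a repeat-poor bin to an intermediate bin that adjoined a megabase with 0 positions. Farther out, bins with under 20 positions also lay 2 to 4 Mb from repeat-poor bins, 1 at each of 4 offsets.

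**Figure D2:**
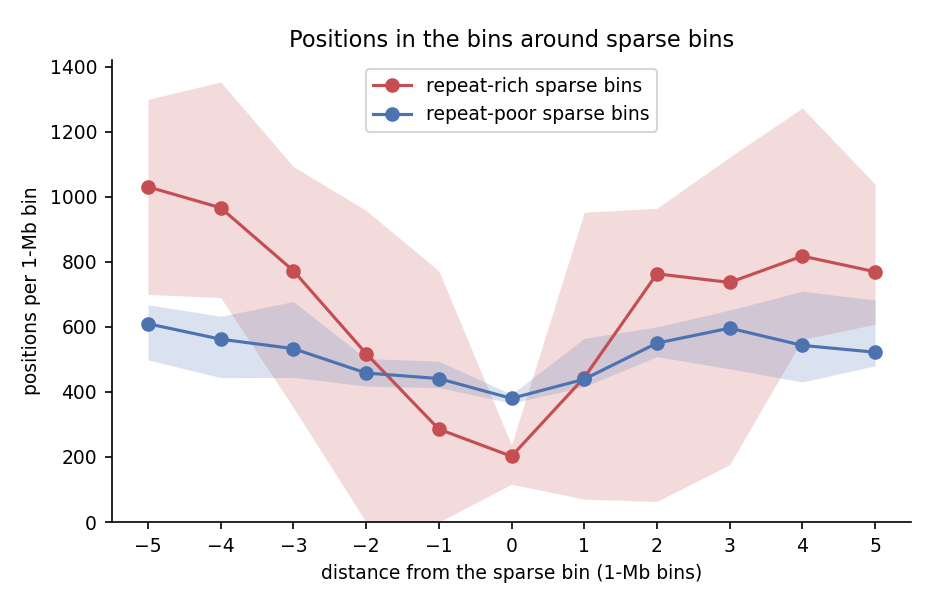
The x axis gives the distance from a sparse bin in 1-Mb bins and the y axis the positions per bin; points are medians and bands the quartiles. Repeat-poor bins (median 380) had neighbours with medians of 441 and 439, while repeat-rich bins (median 202) had neighbours with medians of 285.5 and 444 and a wide spread; low values at 0 follow from the rule.

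Around the repeat-poor bins the median counts changed slowly. Their median was 380 positions, the bins directly before and after had medians of 441 and 439, and the bins 5 Mb away had 609.5 and 522. Around the repeat-rich bins the quartiles of the preceding bin were 0 and 772.25 positions, and 7 of 22 preceding and 6 of 24 following bins held under 20. Of the 13 tandem-unit bins, 12 adjoined a bin with under 20 positions, but of the 13 duplicated bins only 1 did. The low counts of most tandem-unit bins therefore sat at steps in the map, and those of repeat-poor bins in broad troughs. Some duplicated bins were single dips, such as that at 87 Mb on chromosome 2, between bins with 959 and 1461 positions.

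Tandem-unit bins held 57 to 339 positions, with a median of 185. Counts were set against a GC expectation, the number that the bin would hold if every base had the density found at its local GC content over all examined bins. The 13 tandem-unit bins had 0.181 positions per kb against 0.740 expected, a ratio of 0.244. Their positions were crowded: the densest 100 kb of the bin held a median of 58.9% of them, and in 5 bins, on chromosomes 8, 16, 17, 18 and 21, it held 100%. On chromosome 21 all 204 positions of the bin at 12 Mb lay within 34.0 kb at its end, at 6.01 per kb, and the other 966 kb, in which 100% of words were repeated, held none. On chromosome 17 the 148 positions lay within 63.8 kb, on chromosome 18 the 91 positions of the bin at 20 Mb within 64.6 kb, and on chromosome 16 the 57 positions within 50.6 kb. On chromosome 2 at 92 Mb, 272 of 339 positions lay in 1 window of 100 kb. The density within these short stretches, 1.13 to 6.01 per kb, was above the 0.949 per kb of the bins with over 400 positions. That value is a mean over whole bins, whereas each stretch runs only from its first to its last position. In bins with over 400 positions the densest 100 kb held a median of 131 positions. On chromosome 4 at 51 Mb the 185 positions spanned 195 kb, at 0.950 per kb. Other tandem-unit bins were not as crowded: at 121 Mb on chromosome 1, 93 Mb on chromosome 3, 58 Mb on chromosome 6, 15 Mb on chromosome 18, 26 Mb on chromosome 20 and 15 Mb on chromosome 22 the positions spanned 213 to 735 kb, at 0.182 to 0.615 per kb within the span. The longest stretch without a position was 256 to 966 kb in tandem-unit bins, with a median of 802 kb.

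**Figure D3:**
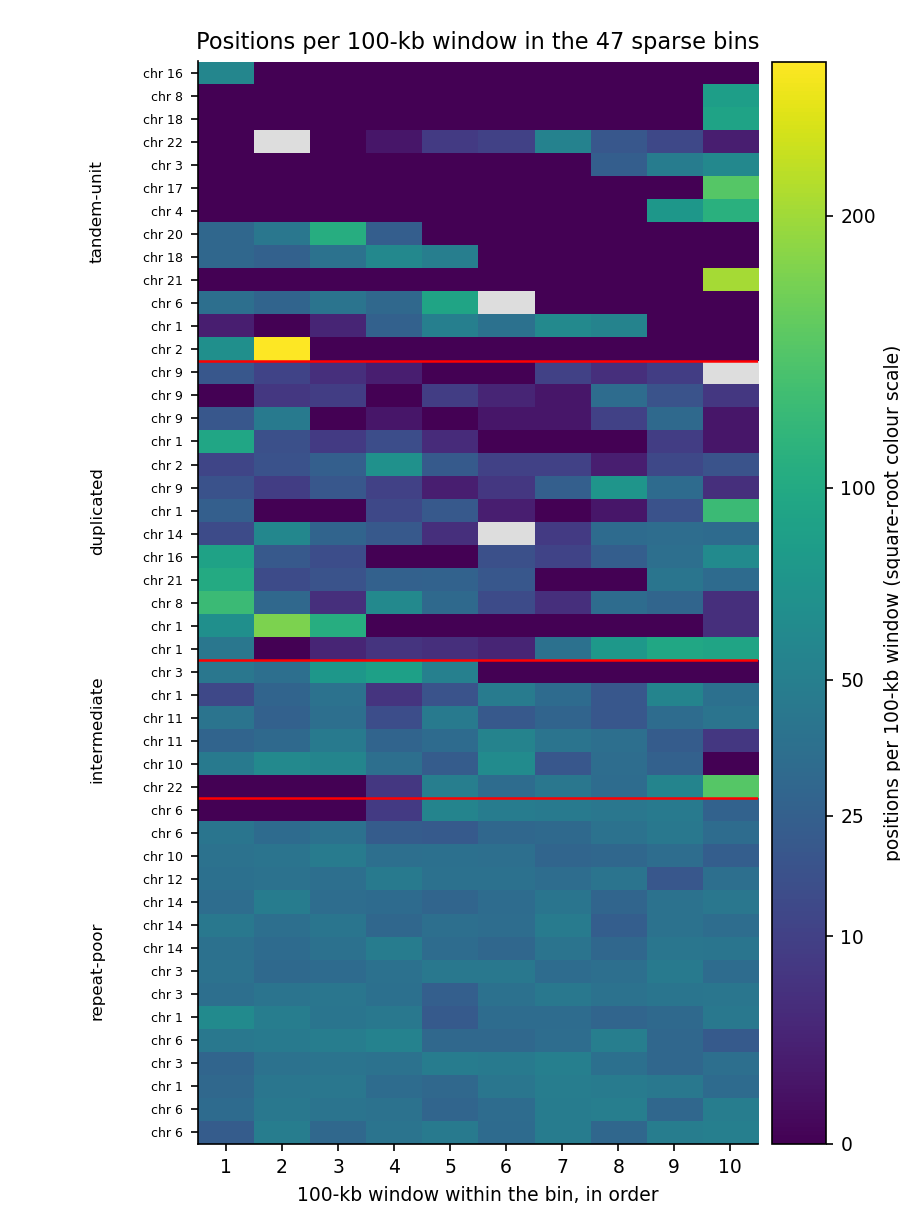
Each row is 1 of the 47 sparse bins and each column a 100-kb window in genome order; colour gives positions per window on a square-root scale, and grey marks windows with mostly undetermined sequence. Many tandem-unit bins have their positions at one side of an empty block, duplicated bins are patchy, and repeat-poor bins are even except for 1 bin on chromosome 6.

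Protein-coding genes were few in tandem-unit bins: 7 start sites in 13 bins, with none in 9 of them, and 4.25% of bases inside protein-coding genes. The 7 included PROS1, which encodes the anticoagulant protein S, and SRGAP2C, a human-specific partial copy of the neuronal gene SRGAP2. PROS1 held 58 positions in 107 kb (0.542 per kb) and had 13.6% repeated words. SRGAP2C held 25 positions in 208 kb (0.120 per kb) with 86.2% repeated words. PROS1, with less repeated sequence, thus had the higher density.

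Duplicated bins held 62 to 365 positions, with a median of 206. Their density was 0.226 per kb against 0.956 expected from GC content, a ratio of 0.236, close to that of the tandem-unit bins. Their positions were patchy rather than crowded at one side: the densest 100 kb held a median of 36.6% of them, and the longest empty stretch had a median of 212 kb. Further copies were located only for words found 2 to 4 times in the genome. Shares of recurring words, here and below, are of all words of a bin and are lower bounds. In duplicated bins a median of 43.0% of words had a located copy in another bin of the same chromosome. A median of 4.48% had a copy on another chromosome, and a word could count in both. The 4 bins on chromosome 9 shared sequence with each other and with bins at 61 to 67 Mb: 27.3% of the words of the bin at 67 Mb recurred in the bin at 41 Mb, and 26.0% of those of the bin at 39 Mb in the bin at 66 Mb. On chromosome 1, 35.1% of the words of the bin at 120 Mb recurred at 149 Mb, and 22.3% of those at 146 Mb recurred at 148 Mb. The bin at 18 Mb on chromosome 16 shared 39.6% of its words with the bin at 16 Mb, and the bin at 87 Mb on chromosome 2 shared 35.7% with the bin at 111 Mb. Between chromosomes, 44.2% of the words of the bin at 19 Mb on chromosome 14 recurred at 15 Mb on chromosome 22.

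Repeated sequence did not always come with a low count. Of the 77 examined bins with at least 50% repeated words, 26 were sparse, 42 held under 20 positions and 9 held over 400. Among those 9, the bin at 148 Mb on chromosome 1 held 1764 positions with 74.6% repeated words, and 1690 of them lay in kilobases where most words were repeated. Neighbouring bins on chromosome 16, at 32 and 33 Mb, held 1895 and 1790 positions, of which 599 and 369 lay in such kilobases. In the bins at 46 and 69 Mb on chromosome 5 and at 24 Mb on chromosome 19 the repeated kilobases held 4 of 532, 11 of 573 and 20 of 620 positions, so nearly all positions of these 3 bins lay outside repeated sequence. Bins that share sequence could thus differ widely in their counts: 34.9% of the words of the sparse bin at 120 Mb on chromosome 1, with 148 positions, recurred in the bin at 148 Mb with 1764. Where a position is listed among copies of the same sequence is uncertain, and the part of read placement in these counts was not tested.

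The duplicated bins held 108 of the 149 protein-coding start sites found in sparse bins, and all 13 had at least 1. Over all 18287 protein-coding genes of the examined bins, 0.815% started in a sparse bin. The bin at 7 Mb on chromosome 8 alone held 42 starts, among them beta-defensins (DEFB), secreted antimicrobial peptides, alpha-defensins (DEFA3, DEFA5) and the FAM90A family. The run at 144 to 147 Mb on chromosome 1 held 29 starts, with members of the neuroblastoma breakpoint family (NBPF), cyclophilin-like PPIAL4 genes, the Notch paralogue NOTCH2NLA, and a block of single-copy genes such as TXNIP, an inhibitor of thioredoxin, RBM8A, a core part of the exon junction complex, and HJV, a regulator of iron balance. Olfactory receptors, the odorant receptors of the nose, had 13 of 396 genes in sparse bins (3.28%), 11 of them in repeat-rich bins, against the 0.815% of all genes. Their genes are clustered and are not independent of each other.

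Members of a gene family differed in density; the identity between the copies was not measured. NBPF10 held 222 positions in 164 kb (1.35 per kb), whereas NBPF20 held 6 in 136 kb (0.0442 per kb) and NBPF26 held 6 in 118 kb (0.0508 per kb). All 3 genes had 86.8 to 94.6% repeated words. SRGAP2B held 170 positions in 208 kb (0.816 per kb), above the 0.120 per kb of SRGAP2C. CNTNAP3B and CNTNAP3, contactin-associated proteins of the neurexin family on chromosome 9, held 7 positions in 239 kb and 52 in 224 kb. NOMO2, part of a membrane protein complex of the endoplasmic reticulum, held 3 positions in 94.9 kb of the bin, and ANKRD20A1 held 5 in 87.8 kb. NOTCH2, the receptor at the edge of the bin at 120 Mb, held 95 positions in its 101 kb inside the bin (0.943 per kb) and 48 in 88.4 kb outside it (0.543 per kb). Those 95 positions were 64.2% of the 148 in the whole bin. SMG1, a kinase of nonsense-mediated mRNA decay, held 37 in 122 kb (0.304 per kb), and the olfactory receptor gene OR4N2 held 38 in 111 kb (0.342 per kb).

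Repeat-poor bins held 273 to 400 positions, with a median of 380, spread evenly: the densest 100 kb held a median of 12.8% of them. Their density was 0.372 per kb against 0.478 expected from GC content, a ratio of 0.778. Their GC content was 33.6 to 35.4%, and all 15 lay in the lowest 10% of their chromosome by GC content, at a median percentile of 1.12. Over the 6 chromosomes that hold them, their median GC content was lower than that of the other examined bins by 5.74 ± 0.998 percentage points (SD, n = 6 chromosomes) and lower on 6 of 6. For repeat-rich bins the difference was -1.29 ± 2.69 percentage points (SD, n = 14 chromosomes), lower on 10 of 14, within the spread between chromosomes. Over all sparse bins it was -2.72 ± 2.92 percentage points (SD, n = 17 chromosomes), lower on 14 of 17. Here and below, the other bins of a chromosome include those with under 20 positions, and the SD is between chromosomes of 1 list, not between cultures.

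Most bins of low GC content were not sparse. Among bins with under 10% repeated words, 2 of 6 with 33 to 34% GC were sparse, 10 of 116 with 34 to 35% and 3 of 193 with 35 to 36%, and none above. In each 2-point step from 24 to 62% GC in the surrounding 200 bp, density in repeat-poor bins was below that of bins with over 400 positions. At 36 to 38% it was 0.370 against 0.491 per kb, at 44 to 46% it was 1.29 against 1.60 and at 48 to 50% it was 1.51 against 1.95. In repeat-rich bins the same densities were 0.159, 0.392 and 0.415 per kb. Above 54% GC the repeat-poor bins and the bins with over 400 positions parted: from the step at 54 to 56% to that at 60 to 62%, density fell from 1.11 to 0.589 per kb in the former, where the last step held 10 positions, and went from 1.65 to 1.92 per kb in the latter. The members were chosen for low counts, so a density below expectation follows in part from the choice; its size and its spread over GC content are the description.

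**Figure D4:**
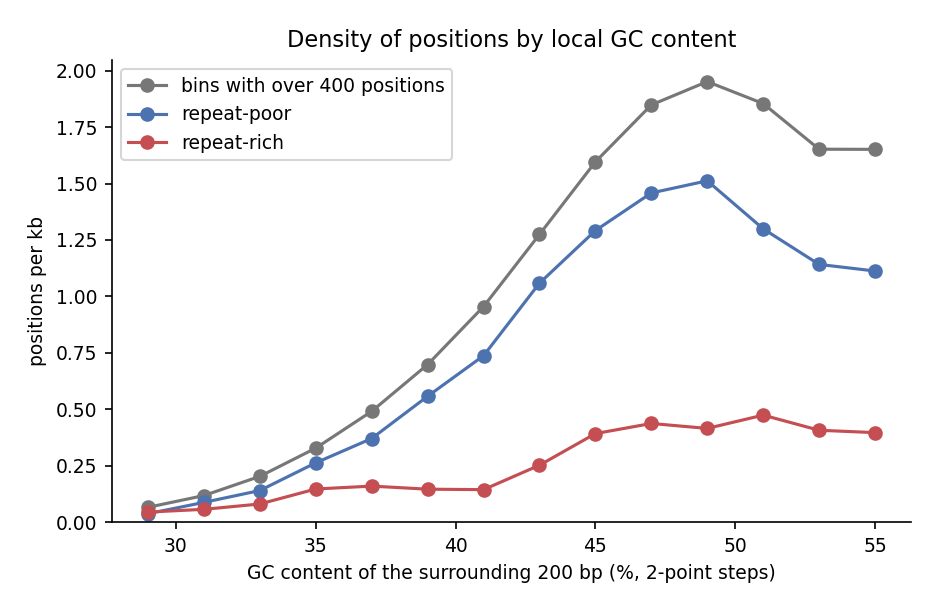
The x axis gives the GC content of the 200 bp around a base in 2-point steps and the y axis positions per kb. Steps from 28 to 56% are drawn. Repeat-poor sparse bins lie below the bins with over 400 positions. They rise from 0.370 per kb at 36 to 38% to 1.51 at 48 to 50% and fall to 1.11 at 54 to 56%. Repeat-rich bins stay at or under 0.474 per kb in every step.

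Genes started rarely in repeat-poor bins. The 15 bins held 8 protein-coding starts, 0.535 per Mb against 7.13 per Mb in bins with over 400 positions, yet 35.1% of their bases lay inside protein-coding genes, against 46.7%. By chromosome the gene-covered share was lower than in the other bins on 3 of 6 and higher on 3. The difference was -9.02 ± 31.1 percentage points (SD, n = 6 chromosomes). The genes described here were taken for the bases they cover in sparse bins, so they are long by choice. CADM2, a synaptic cell adhesion molecule, covered 100% of the bin at 85 Mb on chromosome 3, with 380 positions in 1000 kb. DPYD, which encodes the enzyme that starts pyrimidine breakdown, held 337 positions in 917 kb (0.367 per kb) on chromosome 1. MGAT4C, a glycosyltransferase, held 316 in 839 kb (0.377 per kb) on chromosome 12. PCDH15, a protocadherin of hair cells and photoreceptors, held 242 in 628 kb of the bin (0.385 per kb) and 474 in 1197 kb outside it (0.396 per kb). EYS, a photoreceptor protein, was at 0.315 per kb inside its bin and 0.487 per kb outside. BRINP3, EPHA3 and KHDRBS2 had 0.365, 0.355 and 0.395 per kb. The densities of these 8 genes lay between 0.315 and 0.395 per kb, beside 0.377 per kb between genes in the same bins. Shorter gene stretches could be lower: MANEA, in the bin at 95 Mb on chromosome 6, held 6 positions in 31986 bp, and the gene-covered part of another bin on that chromosome held 22 in 81622 bp. Of the 25 genes with the most bases in sparse bins, 7 reached over 10 kb beyond them, and 5 of these 7 were denser outside. The choice of bins by low counts favours this direction. The exceptions were NOTCH2 and CADM2, the latter with 0.380 per kb inside its bin and 0.225 per kb outside.

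Gene bodies in repeat-poor bins had 0.364 positions per kb against 0.377 between genes, a log2 ratio of -0.05. In repeat-rich bins they had 0.371 against 0.178 per kb. Over all sparse bins pooled the log2 ratio was 0.57. Taken by chromosome it was above 0 on 10 of 14, with an SD of 1.35 between chromosomes, so the pooled value lay within that spread. The bins with over 400 positions had 0.923 per kb inside genes and 0.972 between them.

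One repeat-poor bin stood apart. On chromosome 6, chr6:94966650-95385855 (hg38), 419 kb of which 369 kb are determined sequence, held no position although 2.71% of its words were repeated and it had 34.2% GC. It was the longest of the 23 empty stretches with over 50 kb of determined sequence and under 10% repeated words in the examined bins. GENCODE annotates no gene in it. The bin at 95 Mb, in which it mostly lies, held 273 positions, the lowest count among the repeat-poor bins. A second such place lay on chromosome 1 at 103 Mb, in an intermediate bin with 296 positions: empty stretches of 64.3 and 82.2 kb (8.98 and 2.40% repeated words) were separated by 1 position. The longer held the lncRNA ENSG00000230759 and part of the lncRNA RNPC3-DT. This bin also holds the amylase genes AMY2B, AMY2A, AMY1A, AMY1B and AMY1C, which digest starch, and 15.1% of its words recurred only within the bin. Only these 3 of the 23 stretches touched a sparse bin.

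Intermediate bins held 295 to 370 positions at 0.528 of their GC expectation. The bins at 49 and 89 Mb on chromosome 11 shared sequence with each other: 13.7% of the words of the first recurred in the second and 14.1% of the second in the first. The bin at 89 Mb held TYR, the tyrosinase of melanin synthesis and the only 1 of 28 listed pigment epithelium genes with a start site in a sparse bin. TYR had 51 positions in 118 kb (0.433 per kb) and 11.4% repeated words. Beside it, NOX4, an NADPH oxidase, had 50 positions in 174 kb (0.288 per kb). The glutamate receptor GRM5 also starts there, and TRIM genes occur in both bins. PLD5P1 on chromosome 10 had 145 positions in 266 kb (0.546 per kb). COL11A1, a fibrillar collagen, had 16 positions in 109 kb inside the bin at 103 Mb on chromosome 1 (0.147 per kb) and 22 in 124 kb outside it (0.178 per kb).

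Of the 15 gene lists counted, 7 had at least 1 gene starting in a sparse bin. Besides olfactory receptors, these were zinc finger genes (4 of 475), contactins and their associated proteins (2 of 12), glutamate and GABA receptors (1 of 40), ribosomal proteins (1 of 84), collagens (1 of 41) and pigment epithelium genes (1 of 28). The zinc finger genes (0.842%) and ribosomal proteins (1.19%) were near the 0.815% of all genes. None of 91 cadherins and protocadherins, 94 potassium channels, 40 ADAM proteases, 22 UDP glucuronosyltransferases, 149 keratins, 84 histones, 34 serpins or 24 alcohol and aldehyde dehydrogenases started there, and in lists of these sizes a count of 0 or 1 does not set a list apart from that share. Over all sparse bins, protein-coding starts came to 0.444 of the number that the other bins of the same chromosomes would give, and the gene-covered share was lower by 35.0 ± 21.3 percentage points (SD, n = 17 chromosomes), lower on 16 of 17. Unprocessed pseudogenes, the decayed copies left by duplication, numbered 4.61 per Mb in repeat-rich, 10.6 in intermediate and 0.0669 in repeat-poor bins, against 1.01 in bins with over 400 positions. Repeated words exceeded those of the other bins by 47.6 ± 32.4 percentage points (SD, n = 17 chromosomes) and were higher on 17 of 17, but the repeat-poor bins alone differed by -0.19 ± 1.25 percentage points (SD, n = 6 chromosomes).

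Within the sparse bins, where repeated and single-copy sequence lie side by side, density was lower in the repeated sequence in every kind. In repeat-rich bins, kilobases with at most 10% repeated words had 0.662 positions per kb and those with at least 50% had 0.125. Tandem-unit bins had 0.499 and 0.0828 per kb, and duplicated bins 0.899 and 0.165. Pooled, the single-copy kilobases of duplicated bins thus came near the 0.996 per kb of such kilobases in bins with over 400 positions. They were 583 kb, of which 215 kb with 211 positions lay at 145 Mb on chromosome 1. By bin the density varied, with 0.525 per kb at 19 Mb on chromosome 14 and 1.61 at 7 Mb on chromosome 8. The few such kilobases of the bins on chromosome 9 held 0 positions. In repeat-poor bins the values were 0.382 and 0.147 per kb, and in intermediate bins 0.455 and 0.138. The contrast was not particular to sparse bins: those with over 400 positions had 0.996 and 0.312 per kb.

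Spacing also differed between the kinds. In repeat-poor bins the most frequent distance between neighbouring positions above 100 bp was 187 bp, and distances between all pairs peaked at 183, 362, 562 and 742 bp. In bins with over 400 positions the most frequent distance was 183 bp, with a range of 178 to 187 bp over chromosomes when all other bins were taken, and pairs peaked at 184, 373, 558 and 745 bp. The repeat-poor bins had 0.392 of the density of those bins and a similar period, 187.7 against 186.8 bp per step. In tandem-unit bins neighbours were most often 170 bp apart, and pairs peaked at 172, 339, 513 and 683 bp, 170.7 bp per step. The tandem unit by which these bins were named is 171 bp long. The most frequent shift was 338 to 341 bp at 93 Mb on chromosome 3, 58 Mb on chromosome 6, 36 Mb on chromosome 16 and 20 Mb on chromosome 18. At 15 Mb on chromosome 22 it was 144 bp. Kilobases called tandem held from 0 of 185 positions (51 Mb on chromosome 4) to 50 of 57 (36 Mb on chromosome 16). In the repeat-rich bins the kilobases called tandem held 93 of the 263 neighbour distances from 160 to 180 bp. The most frequent distance was 169 bp inside them (601 pairs) and 170 bp outside (4458 pairs). Sequence outside them may still be tandem: at 12 Mb on chromosome 21, 257 kb were called, beside 921 kb with at least 50% repeated words. Whether the short distance occurs off the repeat unit was therefore not tested. Intermediate bins also had a short most frequent distance, 173 bp, with maxima at 174, 353, 514 and 685 bp and 169.4 bp per step. These bins held the repeat unit as well: 105 kb of their windows matched themselves at a shift of 171 bp, within 1 bp. Of this, 61 kb lay at 90 Mb on chromosome 3 and 44 kb at 16 Mb on chromosome 22. In the latter bin the kilobases called tandem held 0 positions. Kilobases called tandem held 23 of the 97 neighbour distances from 160 to 180 bp in intermediate bins. Of the 136 neighbour distances of any length in these kilobases, 74 lay at 38 Mb on chromosome 10. There the most frequent shift was 105 bp and 0 kb matched at 171 bp. How many of the 23 lay on the 171-bp unit was not measured. Duplicated bins had a most frequent distance of 184 bp and pair maxima at 183, 379, 549 and 771 bp. These maxima were unevenly spaced, so the 193.4 bp per step fitted to them does not describe a regular period.

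**Figure D5:**
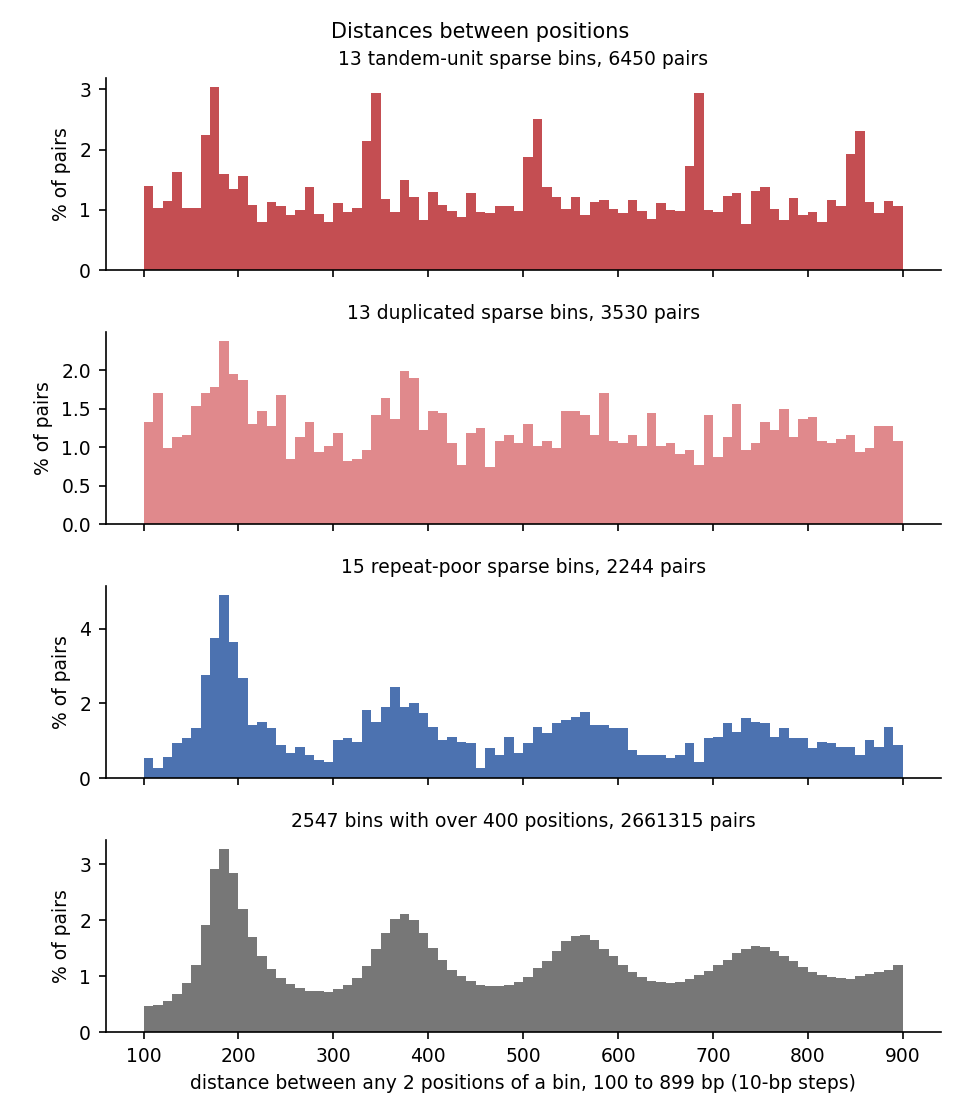
Each panel shows the distances between any 2 positions of a bin in 10-bp steps, as a percentage of the pairs from 100 to 899 bp. Peaks are narrow and near multiples of 171 bp in the 13 tandem-unit bins, and broad and near multiples of 187 bp in the 15 repeat-poor bins and in the bins with over 400 positions; duplicated bins show weaker peaks.

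The short period did not rest on 1 bin. Without the bin on chromosome 21, which held 60 of the 188 neighbour distances from 160 to 180 bp, the tandem-unit bins kept 170 bp as the most frequent distance and 171.0 bp per step. Without chromosome 2 as well, the values were 170 bp and 169.2 bp per step. Over all 47 bins pooled, the most frequent distance was 170 bp, but it mixes the kinds and took values of 170 to 187 bp under other settings. Neighbours closer than 60 bp, less than a nucleosome apart, made up 12.7% of distances in repeat-rich bins (95% Wilson interval 11.8 to 13.6%). They made up 5.26% in repeat-poor bins (4.70 to 5.88%) and 8.84% in bins with over 400 positions. These intervals cover counting error only. Tandem-unit bins had 13.3% and duplicated bins 12.1%. Without the bins on chromosomes 2 and 21 the tandem-unit value was 9.57%.

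Positions in repeat-poor, repeat-rich and intermediate bins lay on sequence richer in GC than the points midway between neighbours 300 to 1000 bp apart. The 150 bp at positions had 43.9% GC against 37.1% midway in repeat-poor bins, 45.4% against 40.7% in repeat-rich bins and 44.8% against 38.8% in intermediate bins. Bins with over 400 positions had 48.7% against 42.5%. By chromosome, the difference in sparse bins was 5.39 ± 1.97 percentage points (SD, n = 17 chromosomes) and above 0 on 16 of 17. The preference of the called positions for GC-rich sequence, 6.83 percentage points in repeat-poor bins and 6.24 in bins with over 400 positions, was thus present in the AT-rich troughs as well.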

How the data were processed

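MNase-seq reads of 2 batches of interphase ARPE-19 cells were aligned with Bowtie2 to hg38, per the submitters' processing notes. The authors deposited 1 list of chromosome, start and end with no height or score; the caller, its threshold, the fragment-length filter, the handling of reads with several matches and the pooling of batches are not given in the sources used here. Duplicate rows were dropped (2634347 rows, 2634343 distinct positions) and positions counted in 1-Mb bins from base 0 of chromosomes 1 to 22 without 15. Members and lists were chosen with earlier results of these data known.

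Repeated sequence was the share of 50-base words found at least 2 times on chromosomes 1 to 22, X and Y, either strand, in the hg38 reference; windows of 1 kb were called tandem at 60% identity with themselves at a shift of 100 to 399 bp. Genes came from GENCODE 44. Named genes are the 25 protein-coding genes with the most bases in sparse bins, and members of the 15 lists with a start site there; genes outside this rule, such as those given for the bins on chromosomes 1 and 8, were chosen after their values were seen. The most frequent distance used a running mean of 11 bp, and pair distances one of 21 bp. No test was run, since bins of 1 list are not replicates; values are medians, ranges and mean ± SD over chromosomes, or values pooled over bins. Functions were tested on simulated data. Alternatives were another bin origin and size, other limits, merging of close positions, other word lengths and the settings named in the closing section. Sequence of chromosome 8 is not printed, and its bins were left out where sequences were picked; the windows of 2 of the 5 longest runs are not reported here. Calculations ran in Python 3.11.15 with numba 0.67.0, pandas 2.3.3, scipy 1.17.1 and numpy 2.4.6.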

Additional observations from a re-analysis of the deposited data

Results flagged for a closer look

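Data outside the comparisons held positions. The 147 bins left out for under 900 kb of determined sequence held 26172 positions in 37.8 Mb, and 25 of them held 20 to 400 positions and would have met the count limits. A further 1388 positions lay on sequences other than chromosomes 1 to 22 and X.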

How the results depend on the processing

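Of 70 alternatives planned and 15 added after the data were seen, 55 and 9 moved a value by less than its spread between chromosomes or its interval, or the number of bins by at most 1.5 times. The number of sparse bins, 47, was 36 with bins starting at 500 kb, 70 with close positions merged, 108 with 500-kb bins, 30 and 92 with at most 350 and 450 positions, and 26 with at least 990 kb of determined sequence. The share of bins in runs was 53.7% with 500-kb bins, 20.0% and 56.5% with at most 350 and 450 positions, and 50% with close positions merged. The most frequent distance, 170 bp in all 47 bins, was 173 bp with bins starting at 500 kb, without chromosome 1 or without chromosome 21, 184 bp with 500-kb bins, 177 bp with at most 450 positions, 187 bp with at least 990 kb of determined sequence, 176 bp with close positions merged and 178 bp with a running mean of 21 bp. In the repeat-poor bins alone it was 187 bp, the GC difference was -5.74 and the gene-covered difference -9.02 percentage points, and both repeated words (-0.19 percentage points) and gene bodies against intergenic sequence (log2 ratio -0.048) changed sign; these bins were picked by their share of repeated words. For the other moved values the cause was not tested. No paired analysis was possible because the list does not separate the batches. Unknown read depth sets no limit that could be computed.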
